A study of Mus musculus with 3 samples.

Results

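The class I and class II histone deacetylases were described in KO-actin cells as a family of 10 genes. Members were taken as every row of the deposited count files whose Ensembl identifier carries the symbol of a class I gene (Hdac1, Hdac2, Hdac3 or Hdac8), a class IIa gene (Hdac4, Hdac5, Hdac7 or Hdac9) or a class IIb gene (Hdac6 or Hdac10), and all 10 were found among 46603 genes. The samples were 3 libraries of polyadenylated RNA from mouse embryonic fibroblasts (MEFs), labelled β-actin KO-NLS-beta-actin, numbered 1 to 3. These cells lack their own β-actin and express a β-actin fused to a nuclear localization signal (NLS). The knockout is thus shared by every library, and neither wild-type nor knockout cells were analysed here, which leaves levels within 1 condition as the only readout. The labels state neither the promoter of the NLS-tagged β-actin, nor the age or sex of the embryos, nor whether the cells are a clone, nor whether the libraries came from separate cultures. P-values therefore measure only the spread between these libraries, which may be technical. In bulk RNA such as this, fewer cells that express a gene and less of its RNA per cell cannot be told apart.

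Histone deacetylases remove acetyl groups from lysines and so oppose the acetyltransferases that write marks such as H3K27ac. Class I enzymes are mainly nuclear, and Hdac1, Hdac2 and Hdac3 act inside large corepressor complexes. Class IIa enzymes are weak deacetylases that bind MEF2 transcription factors, carry Hdac3 and its corepressors to target genes, and leave the nucleus on 14-3-3 proteins once kinases have phosphorylated them. Among the class IIb enzymes, Hdac6 is a mostly cytoplasmic deacetylase of tubulin and cortactin and Hdac10 is a polyamine deacetylase. Nuclear actin has been linked to the activity of class I deacetylases.

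The classes differ at one residue of the active site, which is shown because it is what separates the class IIa enzymes described here from the others. Class I and IIb enzymes carry a catalytic tyrosine there, and class IIa enzymes carry a histidine. Each line below holds 45 bases of coding sequence, 5′ to 3′ on the coding strand, from the GENCODE transcript with the longest coding sequence of that gene, with the codon of this residue in capitals. No line is printed for Hdac3.
Hdac1: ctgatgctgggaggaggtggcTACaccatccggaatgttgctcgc
Hdac2: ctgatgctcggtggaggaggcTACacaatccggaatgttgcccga
Hdac8: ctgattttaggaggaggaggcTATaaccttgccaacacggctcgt
Hdac4: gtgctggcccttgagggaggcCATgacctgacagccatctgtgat
Hdac5: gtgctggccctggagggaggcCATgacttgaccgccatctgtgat
Hdac7: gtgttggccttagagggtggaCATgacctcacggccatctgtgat
Hdac9: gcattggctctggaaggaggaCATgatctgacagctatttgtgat
Hdac6, first catalytic domain: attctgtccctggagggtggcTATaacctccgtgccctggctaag
Hdac6, second catalytic domain: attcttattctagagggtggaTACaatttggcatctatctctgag
Hdac10: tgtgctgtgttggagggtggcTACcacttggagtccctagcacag

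In GRCm38 the stretch of Hdac1 lies in exon 9 of 14 at chr4:129518880-129518924 on the minus strand, and that of Hdac2 in exon 9 of 14 at chr10:36997036-36997080 on the plus strand. The class IIa stretches all lie on the minus strand, at chr1:91945939-91945983 for Hdac4, chr11:102196578-102196622 for Hdac5, chr15:97796137-97796181 for Hdac7 and chr12:34107257-34107301 for Hdac9. The capitals read TAC or TAT, both codons of tyrosine, in Hdac1, Hdac2, Hdac8, Hdac10 and both domains of Hdac6, and CAT, a codon of histidine, in Hdac4, Hdac5, Hdac7 and Hdac9. Hdac1 and Hdac2 encoded the same residue at 15 of 15 codons and shared 39 of 45 bases. Hdac4, Hdac5 and Hdac7 were also the same at 15 of 15 codons, and Hdac9 matched each of them at 14 of 15. In this stretch Hdac9 was thus close to the members of its class from which its RNA level, given below, was far.

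Levels were taken from the raw number of reads on each gene. Counts per 1e6 reads (CPM) were scaled by edgeR's TMM method, and for comparison between genes they were divided by the length of the union of a gene's exons to give CPM per kilobase. Library totals ranged from 44383636 to 49932446 counts. Of the 10 members, 9 had at least 10 counts in every library. A mean of at least 1 CPM was reached by the same 9, while 52.2% of the 21547 protein-coding genes in the files reached it. These cells were checked against fibroblast markers, of which 8 of 10 reached 1 CPM on average, with a summed level of 12156 to 13154 CPM, Vim at 4563 ± 238 CPM and Fn1 at 3578 ± 17.6 CPM (SD, n = 3). The defining markers Dcn, at 0.152 ± 0.0156 CPM, and Thy1, at 0.836 ± 0.254 CPM (SD, n = 3), were near 0.

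**Figure D1:**
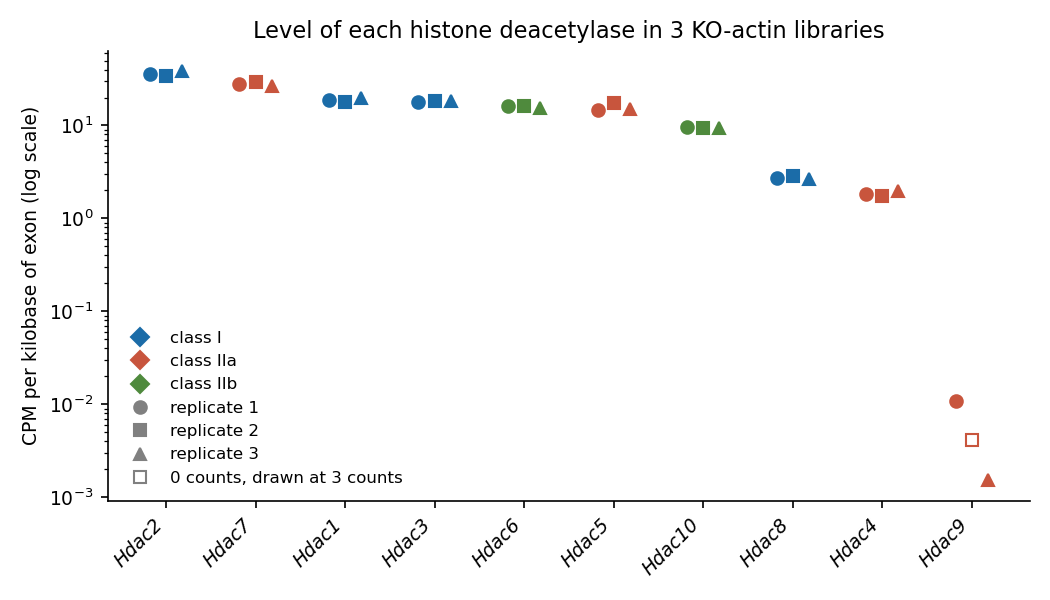
Level of each member in CPM per kilobase of exon (log axis) in each of the 3 KO-actin libraries, in the order of the means, with colours for the classes and symbols for the replicates. The open square marks Hdac9 in replicate 2, which had 0 counts and is drawn at the floor of 3 counts. The points of each of the other 9 members lie close together, and those of Hdac9 lie far below all of them.

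Hdac2, a catalytic subunit of the SIN3, NuRD and CoREST complexes, had the highest level per length of the family. Its CPM per kilobase was 35.6, 33.9 and 38.4 in replicates 1, 2 and 3, a mean of 35.9 ± 2.26 (SD, n = 3), above that of 92.6% of protein-coding genes. Hdac1, its close paralog in the same complexes, had 18.8, 18.1 and 19.7 CPM per kilobase, a mean of 18.9 ± 0.797 (SD, n = 3). Hdac2 was above Hdac1 in 3 of 3 libraries, by 1.90 ± 0.0396-fold (SD, n = 3), which is far beyond the spread between the libraries but rests on how reads of Hdac1 were counted, as described below. Hdac3, the catalytic subunit of the NCoR complex, had 17.9, 18.5 and 18.4 CPM per kilobase, a mean of 18.3 ± 0.326 (SD, n = 3). Hdac8, the class I enzyme that acts outside these complexes and deacetylates cohesin, was the lowest of its class, with 2.72, 2.86 and 2.69 CPM per kilobase and a mean of 2.76 ± 0.0917 (SD, n = 3). It stood above 60.1% of protein-coding genes.

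In class IIa the members other than Hdac9, described below, ranged from 1.86 to 27.8 CPM per kilobase, against 2.76 to 35.9 in class I. Hdac7, known for its part in endothelial cells and thymocytes, was the highest, with 27.9, 29.3 and 26.3 CPM per kilobase and a mean of 27.8 ± 1.50 (SD, n = 3). Hdac5 had 14.8, 17.3 and 15.2 CPM per kilobase, a mean of 15.8 ± 1.32 (SD, n = 3), and replicate 2 was its highest library. Hdac4, a regulator of chondrocyte hypertrophy and muscle, had 1.85, 1.75 and 1.97 CPM per kilobase, a mean of 1.86 ± 0.112 (SD, n = 3). The 3 libraries of Hdac7 lay above all of Hdac5, and those of Hdac5 above all of Hdac4, with no overlap. In class IIb, Hdac6 had 16.1, 16.2 and 15.5 CPM per kilobase, a mean of 15.9 ± 0.384 (SD, n = 3), and Hdac10 had 9.53, 9.33 and 9.36, a mean of 9.41 ± 0.110 (SD, n = 3). Hdac6 lay above Hdac10 in 3 of 3 libraries. Markers of endothelial cells, in which Hdac7 is known to be abundant, were low, with Cdh5 at 0, 0 and 1 counts, Pecam1 at 0.119 ± 0.0165 CPM (SD, n = 3), 2 of 6 genes at a mean of at least 1 CPM, and a summed level of 4.77 to 5.50 CPM.

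In the order of CPM per kilobase, from high to low, the members stood as Hdac2, Hdac7, Hdac1, Hdac3, Hdac6, Hdac5, Hdac10, Hdac8, Hdac4 and Hdac9. Of the 8 neighbouring pairs among the first 9, 6 had the same member higher in 3 of 3 libraries. For each of these 6 an exact two-sided sign-flip permutation test gave p = 0.25, the smallest that 3 libraries allow, and 0.333 after Benjamini-Hochberg adjustment over the 8 pairs, so that this design cannot reach 0.05. The folds ranged from 1.15 for Hdac3 over Hdac6 to 3.42 for Hdac10 over Hdac8. Hdac1 and Hdac3 could not be ordered, at a log2 ratio of 0.05 ± 0.07 (SD, n = 3) with Hdac1 higher in 2 of 3 libraries (exact p = 0.5, adjusted 0.571). The same held for Hdac6 and Hdac5, at a log2 ratio of 0.02 ± 0.10 (SD, n = 3) with Hdac6 higher in 2 of 3 libraries (exact p = 0.75, adjusted 0.75). Without replicate 2 the first member of each of the 8 pairs was higher in both remaining libraries.

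Dividing by the length of the longest coding transcript in place of the union of exons changed the order inside these groups. Hdac3 then stood above Hdac1 in 3 of 3 libraries, with a mean of 36.4 ± 0.650 against 31.9 ± 1.35 CPM per kilobase (SD, n = 3). Hdac5 stood above Hdac6, at 28.5 ± 2.39 against 22.4 ± 0.539 (SD, n = 3). Hdac2 was then above Hdac7 in only 2 of 3 libraries. For Hdac2 this transcript is a partial coding model with 8 exons and 912 coding bases. The transcript used for its catalytic stretch has 14 exons and 488 codons. Which transcripts these cells use is not shown by counts per gene, and Hdac4 has the longest union of exons, with 15813 bases against 8100 bases in its longest coding transcript. The separation of Hdac10, Hdac8 and Hdac4 from the members above them was seen with both lengths.

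Class I held the largest share of the summed CPM per kilobase of the 10 members. Its share was 51.6%, 49.8% and 53.7% in replicates 1, 2 and 3, averaging 51.7% ± 1.92 (SD, n = 3), against 31.0% ± 1.68 for class IIa and 17.3% ± 0.393 for class IIb. The ranges of the classes did not overlap, and class IIa was highest in replicate 2, at 32.8%. Hdac2 supplied 47.4% ± 1.14 of class I, Hdac7 61.2% ± 1.21 of class IIa and Hdac6 62.9% ± 0.586 of class IIb (SD, n = 3). Class I and class IIa hold 4 members each and class IIb 2, and members are not replicates of a class, so no test was made. Without division by length, class IIa was the largest, at 44.8% of the CPM against 39.5% for class I.

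**Figure D2:**
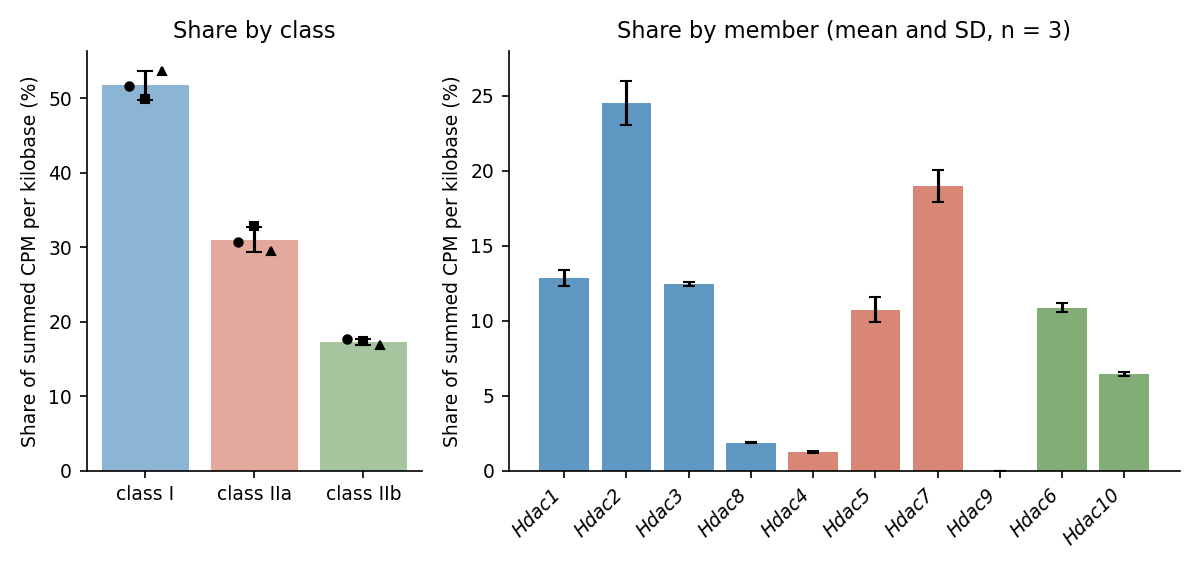
Share of the summed CPM per kilobase of the 10 members held by each class (left) and by each member (right), in percent, with bars for the mean, error bars for the SD over 3 libraries and, on the left, points for the libraries. Class I stands at 51.7%, class IIa at 31.0% and class IIb at 17.3%, with Hdac2 and Hdac7 as the tallest members and Hdac9 without a visible bar.

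The count of Hdac1 carried an uncertainty of its own, since a near-identical copy of its mRNA lies elsewhere in the genome. The processed pseudogene Gm10093, at chr17:78491582-78493025 on the plus strand of GRCm38, matched the Hdac1 transcript at 1435 of 1444 bases (99.4%). It was singled out after its values had been seen. Of the 50-base windows of the longest coding transcript of Hdac1, 58.7% also occur in transcripts of other genes and 56.4% in Gm10093, some of the latter in Gm4864 too. The catalytic stretch printed above is found in Gm10093 without a difference, at chr17:78492467-78492511. For Hdac2, Hdac3, Hdac6, Hdac7, Hdac8, Hdac9 and Hdac10 the share of such windows was 0%, and for Hdac4 and Hdac5 it was 1.08% and 1.29%. For Hdac2 this covers only the transcript with 8 exons and 912 coding bases. Windows of its transcript with the longest coding sequence were not compared.

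Gm10093 was listed with almost as many reads as Hdac1 itself. Its counts were 2893, 2933 and 2705 in replicates 1, 2 and 3, against 3230, 3072 and 3030 for Hdac1. In CPM this was 59.3 ± 1.30 for Gm10093 and 65.0 ± 2.75 for Hdac1 (SD, n = 3), a ratio of 0.896, 0.955 and 0.893 in the 3 libraries. Counts per gene do not tell reads of Hdac1 mRNA placed on the pseudogene from RNA of the pseudogene, and how reads with several matches were treated is not given in the sources used here. As an alternative chosen after seeing the data, the counts of Gm10093 were added to those of Hdac1. The level of Hdac1 then rose to 36.1 ± 1.03 CPM per kilobase, and the ratio of Hdac2 to Hdac1 became 0.995 ± 0.0359 (SD, n = 3), with the libraries at 0.998, 0.958 and 1.03. Hdac1 thus moved from the third place in the order to a level that could not be told from that of Hdac2, and it stood above Hdac7 in 3 of 3 libraries. The share of class I rose to 56.8%.

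**Figure D3:**
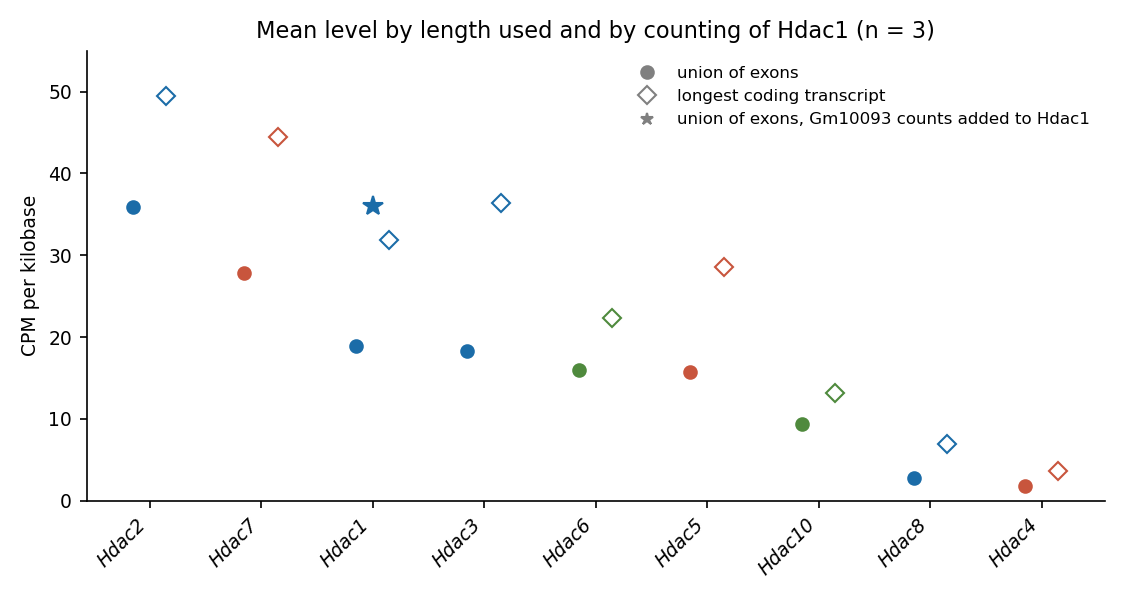
Mean level (n = 3 libraries) of 9 members (Hdac9 is left out) in CPM per kilobase, with circles for the union of exons, open diamonds for the longest coding transcript and a star for Hdac1 with the Gm10093 counts added. The star at 36.1 lies at the height of the Hdac2 circle at 35.9, and the diamonds lift Hdac3 above Hdac1 and Hdac5 above Hdac6.

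Other members were less open to such sharing of windows, but some overlap other genes. The exons of Hdac4 are overlapped over 22.4% of their length by the non-coding gene Gm26720 on the opposite strand, which was listed at 0 counts in every library. Whether counting used the strand is not given in the sources used here. The level of Hdac4 may thus be too low by reads lost in this overlap, which was not tested. Exons of other genes on either strand overlapped those of Hdac5 over 1.26% and those of Hdac7 over 0.429% of the length (by Slc48a1 on the opposite strand, with 9533, 10144 and 8384 counts), and those of the remaining 7 members over 0%.

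Hdac9, a class IIa enzyme known from heart, skeletal muscle and brain, was near silent. Its counts were 8, 0 and 1 in replicates 1, 2 and 3, so that it passed the floor of 3 counts in 1 of 3 libraries. With 0 counts in replicate 2, a level of up to 0.0609 CPM (3 counts) is allowed there. Its 9 counts in all corresponded to 0.0626 CPM, with an exact 95% Poisson interval from 0.0286 to 0.119 CPM that covers counting error only. Set against these 9 counts, Hdac4 had 4218 counts, Hdac5 19922 and Hdac7 27081 over the 3 libraries. Per kilobase, Hdac4 stood 435-fold above Hdac9 (exact 95% interval 229 to 951), Hdac5 3697-fold (1947 to 8087) and Hdac7 6532-fold (3441 to 14288). Replicate 1 decided these ratios, since without replicate 1 Hdac9 was left with 1 count and the ratio of Hdac4 became 2559 (459 to 101099), that of Hdac5 22439 (4027 to 886337) and that of Hdac7 38353 (6883 to 1514930). Even the lower bounds with all libraries put Hdac4, the lowest of the other class IIa members, more than 2 orders of magnitude above Hdac9. Hdac9 was named for this low level, so these values are a description with no test.

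Markers of skeletal muscle, a tissue in which Hdac9 is known to be active, were also low. Myod1, Myog, Myf5, Ckm and Myh3 were at 0 counts in every library, and Ttn had 6, 5 and 4 counts. The neuronal list had 4 of 6 genes averaging 1 CPM or more, with a summed level of 57.2 to 57.3 CPM. Tubb3 was at 11.0 ± 1.02 CPM and Map2 at 40.9 ± 0.719 CPM, while Rbfox3 was at 0.306 ± 0.0229 CPM (SD, n = 3). Blood cell markers had 0 of 6 genes at this level, with a sum of 0.361 to 0.406 CPM and Cd3e at 0 counts in every library. Epithelial markers had 3 of 6, with a sum of 80.2 to 88.9 CPM that came mostly from Krt18, at 37.9 ± 1.08 CPM, and Krt19, at 44.1 ± 4.14 CPM (SD, n = 3). Epcam had 0, 1 and 0 counts and Cdh1 4, 12 and 1. The part of other cell types in the levels of the deacetylases was not tested.

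The silence of Hdac9 did not extend to its whole neighbourhood. Hdac9 spans 869516 bases at chr12:34047580-34917095 on the minus strand of GRCm38. On one side its nearest protein-coding neighbour was Twist1, a transcription factor of mesenchyme, 87750 bases away. Twist1 had 936, 1082 and 808 counts, or 19.6 ± 2.07 CPM (SD, n = 3). On the other side Prps1l1, 67665 bases away, had 0 counts in every library.

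RefSeq (GRCm38.p6) gives the 300 bases around 11 start sites of 7 members (Hdac2, Hdac4, Hdac5, Hdac6, Hdac7, Hdac8 and Hdac9). The dinucleotide CG, searched over the 300 bases and the same on both strands, is a mark of housekeeping-type promoters, and the median over all 32851 promoters in the table was 7. The outer promoter of Hdac9 held 0 and its inner promoter 3, which 23.3% of all promoters fell below. The 4 promoters of Hdac7 held 5, 6, 31 and 35, and the others held 36 for Hdac2, 32 for Hdac4, 18 for Hdac5, 20 for Hdac6 and 6 for Hdac8. The 250 bases before the outer start of Hdac9, at chr12:34917096-34917345 on the minus strand, and before the start of Hdac4, at chr1:92180342-92180591 on the minus strand, are shown 5′ to 3′ with every CG in capitals, to set the promoter of the near-silent gene beside that of a transcribed gene of its class with a single promoter in the table. Hdac4 was picked with these counts known, and Hdac5, with 18, is another such gene. The GENCODE gene of Hdac4 extends upstream of this RefSeq start of Hdac4, to chr1:92195699, so the stretch shown lies inside that gene. Counts per gene do not tell which start of Hdac4 was in use. Hdac8, with 6, was transcribed at 2.76 CPM per kilobase. The part of CG content in the levels was not tested.
Hdac9: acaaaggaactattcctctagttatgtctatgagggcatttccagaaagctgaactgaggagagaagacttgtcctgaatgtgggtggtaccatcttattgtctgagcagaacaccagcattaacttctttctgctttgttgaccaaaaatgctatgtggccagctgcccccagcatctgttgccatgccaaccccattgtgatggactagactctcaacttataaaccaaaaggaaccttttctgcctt
Hdac4: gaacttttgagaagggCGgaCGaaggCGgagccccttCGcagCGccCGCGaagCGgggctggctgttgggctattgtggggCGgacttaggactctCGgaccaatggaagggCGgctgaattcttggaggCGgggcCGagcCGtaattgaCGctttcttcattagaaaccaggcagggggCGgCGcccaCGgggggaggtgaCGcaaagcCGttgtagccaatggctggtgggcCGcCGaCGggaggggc

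The upstream stretch of Hdac4 holds 23 CG and that of Hdac9 none. Hdac7, the highest class IIa member, had promoters with few and with many CG, and counts per gene do not tell which of them was in use.

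Replicates of each member were compared next, to see how firmly its level is known. Counts of a gene were set by a chi-square test against the shares that the TMM-scaled sizes of the libraries predict, and p was adjusted by the Benjamini-Hochberg method over every gene tested. At an adjusted p of 0.05 it called 5 of the 9 members tested, against 43.9% of all 13814 genes that held 10 counts or more in each library. This share is near the background and is not a result about the family. The calls were Hdac5 (adjusted p = 7.96e-20), Hdac2 (adjusted p = 2.41e-12), Hdac7 (adjusted p = 1.54e-10), Hdac1 (adjusted p = 0.0131) and Hdac4 (adjusted p = 0.0183), all by the chi-square test over all genes. The test compares libraries of a single condition, and the differences were small. The highest library exceeded the lowest 1.17-fold for Hdac5, 1.13-fold for Hdac2 and 1.02-fold for Hdac10, against a median of 1.11-fold over all tested genes.

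Hdac3, Hdac8, Hdac6 and Hdac10 did not pass, with adjusted p from 0.146 for Hdac6 to 0.851 for Hdac10. The coefficient of variation of Hdac10 was 1.17%, below the 2.56% that counting error alone gives for a single library, and that of Hdac3 was 1.79% against 1.68%. For Hdac5 it was 8.39% against 1.23%. Without replicate 2 the calls were 2 of 9, Hdac2 and Hdac7, against 12.5% of all genes. Hdac5, Hdac1 and Hdac4 were lost, with adjusted p of 0.368, 0.229 and 0.257. Without replicate 3 the calls were 3 of 9, Hdac2, Hdac5 and Hdac7, against 34% of all genes, and without replicate 1 they were 5 of 9, Hdac1, Hdac2, Hdac4, Hdac5 and Hdac7, against 32.9%.

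Among the 5 called members, replicate 2 was the lowest library of Hdac1, Hdac2 and Hdac4 and the highest of Hdac5 and Hdac7, and replicate 3 stood at the other end for Hdac1, Hdac2, Hdac4 and Hdac7. On the log2 scale replicate 2 lay above the mean of replicates 1 and 3 by 0.20 for Hdac5 and 0.11 for Hdac7, whose longest coding transcripts have 58.8% and 58.9% GC. It lay on the other side, at -0.13 for Hdac2, with 41.9% GC, and at -0.09 for Hdac1. Over all tested genes with such a transcript, the median of the same difference was -0.10 in the 3022 genes of lowest GC content (at most 45.5%) and 0.11 in the 3022 genes of highest GC content (at least 55.2%). Hdac4, at -0.13 with 52.5% GC, Hdac10, at -0.02 with 56.8% GC, and Hdac8, at 0.08 with 48.7% GC, did not follow this order. The GC of Hdac1, Hdac3, Hdac4, Hdac6 and Hdac8 fell in neither of these groups. That of Hdac2 was taken from its partial coding model with 8 exons and 912 coding bases. The part of GC content in the differences between the libraries was not tested.

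**Figure D4:**
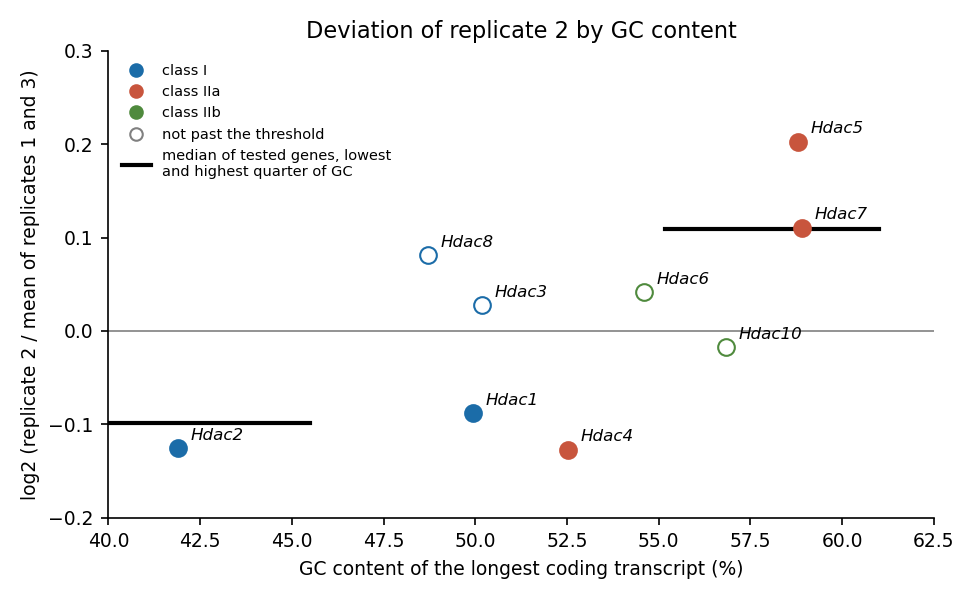
Difference between replicate 2 and the mean of replicates 1 and 3 on the log2 scale, plotted for 9 members against the GC content of the longest coding transcript in percent. Filled points passed the chi-square test over all genes and open points did not, and black lines give the medians over all tested genes among the 3022 genes of lowest and the 3022 of highest GC content. Hdac5 at 0.20 and Hdac7 at 0.11 lie at the high end, and Hdac2 and Hdac4, each at -0.13, at the low end. Hdac4 lies there with 52.5% GC, in neither of the GC groups.

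RNA of all listed partners of the class I enzymes was detected. Each of the 15 genes listed for the SIN3 complex had a mean of at least 1 CPM, as did 12 of 12 for NuRD, 9 of 9 for CoREST and 5 of 5 for NCoR. In the SIN3 list the histone chaperone Rbbp7 was highest, at 155 ± 0.793 CPM per kilobase, followed by Sap30l at 44.8 ± 4.54, and the DNA-binding subunits Arid4a, at 3.62 ± 0.184, and Arid4b, at 3.19 ± 0.222, were lowest (SD, n = 3). In NuRD, Mbd3, a subunit that joins remodelling and deacetylase modules, had 155 ± 13.4 CPM per kilobase, level with Rbbp7. The ATPase Chd5, known from neurons, was lowest at 0.510 ± 0.0397 CPM per kilobase, next to Gatad2b at 6.21 ± 0.580 (SD, n = 3).

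In the CoREST list Hmg20b had 32.8 ± 2.78 and the demethylase Kdm1a 31.8 ± 0.372 CPM per kilobase, against 1.30 ± 0.0497 for Rcor3 (SD, n = 3). In the NCoR list the scaffold Ncor1 had 17.8 ± 0.269 CPM per kilobase, near Hdac3 itself at 18.3, with Gps2 at 30.9 ± 1.23, Tbl1x at 22.8 ± 0.356 and Tbl1xr1 at 3.29 ± 0.258 (SD, n = 3). Among the scaffolds of other Hdac1 and Hdac2 complexes, Mier1 had 4.97 ± 0.276, Mier2 10.7 ± 0.785, Mier3 4.56 ± 0.451 and Mideas 5.51 ± 0.238 CPM per kilobase, and the MiDAC subunit Dnttip1 had 23.0 ± 1.94 (SD, n = 3). Expression of every listed subunit says nothing about assembly of the complexes.

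The MEF2 factors that class IIa enzymes repress differed widely in level. Mef2d had 16.9 ± 0.417 and Mef2a 5.32 ± 0.282 CPM per kilobase (SD, n = 3). Mef2c had 42, 41 and 43 counts, or 0.879 ± 0.0727 CPM (SD, n = 3), and Mef2b had 0, 4 and 1 counts. Of these 4 genes Mef2a and Mef2d reached 1 CPM, Mef2c was below it but above the floor of 3 counts in every library, and Mef2b was near 0.

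Most of the listed kinases and 14-3-3 genes, which act in moving class IIa enzymes out of the nucleus, were expressed. Other parts of that route were not listed. Of 16 kinases known to phosphorylate class IIa enzymes, 14 had a mean of at least 1 CPM, led by Camk2g at 16.5 ± 0.247 and Mark2 at 13.5 ± 0.306 CPM per kilobase (SD, n = 3). The neuronal kinases Camk4, at 0.380 ± 0.113 CPM (SD, n = 3), and Camk1g, with 1, 0 and 2 counts, were under it. Of the 7 genes of 14-3-3 proteins 6 were above 1 CPM, with Ywhae at 321 ± 4.64 and Ywhaz at 169 ± 7.37 CPM per kilobase and Ywhaq at 66.7 ± 1.47 (SD, n = 3). The epithelial member Sfn was at 0.410 ± 0.202 CPM (SD, n = 3). All 8 genes listed as substrates or partners of Hdac6 were above 1 CPM. Its chaperone substrate family was highest, with Hsp90ab1 at 1529 ± 3.87 CPM per kilobase, followed by the tubulin gene Tuba1b at 509 ± 17.0 (SD, n = 3). Cttn, which encodes cortactin, had 74.4 ± 0.702, and Atat1, the acetyltransferase that opposes Hdac6 on tubulin, was lowest at 3.51 ± 0.298 CPM per kilobase (SD, n = 3). How far these abundant families share reads with their own copies was not measured here.

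**Figure D5:**
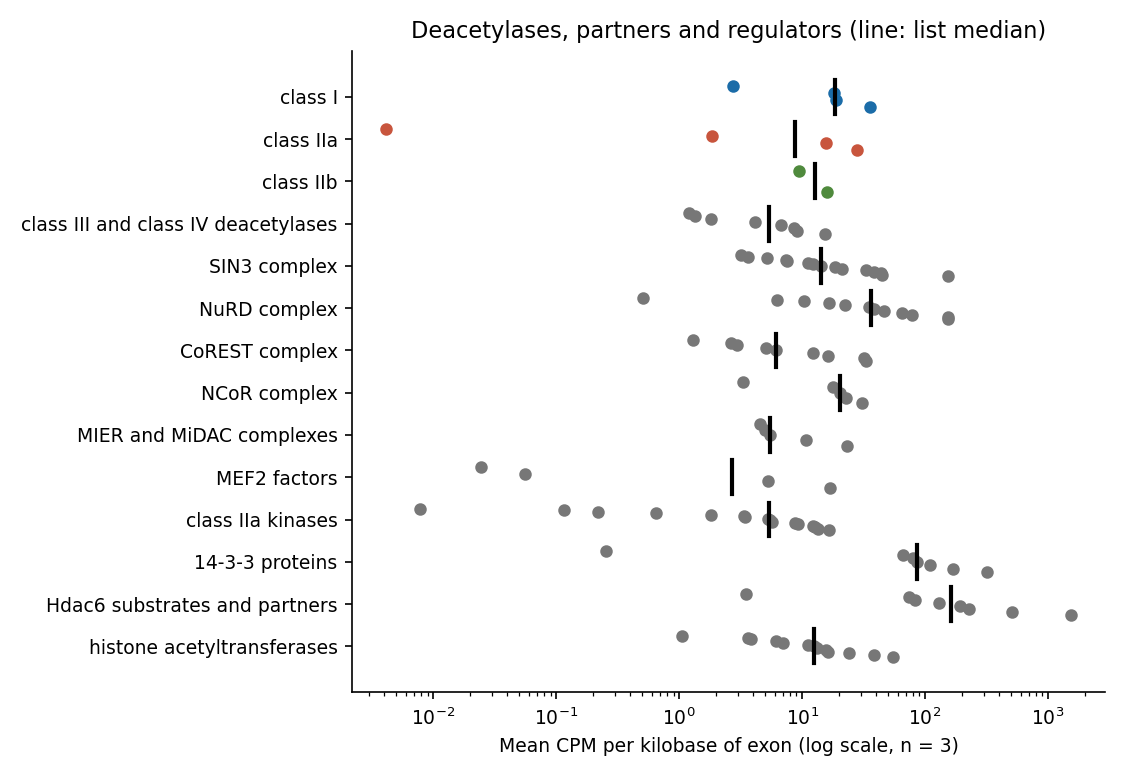
Mean CPM per kilobase of exon (log axis, n = 3 libraries) of each gene of the 3 classes and of 11 lists of partners, regulators and opposing enzymes, with a point for each gene and a black line at the median of each list. The lists of 14-3-3 proteins and of Hdac6 substrates lie far to the right of the deacetylases, at medians of 85.4 and 162, and the lists of MEF2 factors and class IIa kinases hold the points nearest to Hdac9 at the far left.

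Other deacetylases and the opposing acetyltransferases were set beside the family for scale. Class III and class IV enzymes, the sirtuins and Hdac11, were all above 1 CPM, 8 of 8, with a median of 5.42 CPM per kilobase, against 18.6 for class I, 8.81 for class IIa and 12.7 for class IIb. Sirt2, a cytoplasmic tubulin deacetylase, had 15.4 ± 0.719 CPM per kilobase, near Hdac6 at 15.9, and Sirt6 had 9.15 ± 0.488 (SD, n = 3). The mitochondrial enzymes Sirt3, at 1.19 ± 0.109, and Sirt5, at 1.35 ± 0.0822, were the lowest of that list (SD, n = 3). Among 13 acetyltransferases, all above 1 CPM, the median was 12.6 CPM per kilobase. Hat1, which acetylates newly made histones, had 54.6 ± 3.07 and Kat2a 38.6 ± 1.02. These 2 genes alone had a mean above that of Hdac2, but in replicate 3 Hdac2, at 38.4, was above Kat2a. Kat6b, at 1.05 ± 0.0105, and Crebbp, at 3.64 ± 0.133 CPM per kilobase, were the lowest (SD, n = 3). Over the 11 lists, 95 of 100 genes, each counted once, had a mean of at least 1 CPM, which compares with 52.2% of all protein-coding genes and with 9 of the 10 members.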

How the data were processed

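Libraries of polyadenylated RNA from KO-actin MEFs (3 in 1 group, by their titles) were analysed. For each library the authors deposited counts per Ensembl identifier, without normalization and without rows for unassigned reads. The submitters' processing notes name Trimmomatic, FastQC, HISAT2, HTSeq and the builds mm10 and GRCm38, while versions, strand setting, treatment of reads with several matches and annotation release are not given in the sources used here.

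Symbols, coordinates and exonic lengths came from GENCODE release M21 on GRCm38, which matched 46005 of 46603 identifiers, and 1 listed gene was found through a RefSeq synonym. TMM scaling used edgeR (4.0.16; R 4.3.3). Plain totals and the size factors of DESeq2 (1.42.0) were tried as alternatives. The chi-square test (2 degrees of freedom) took genes that reached 10 counts in each library and was adjusted by the Benjamini-Hochberg method over all of them. It was checked on simulated counts that held counting error only, apart from planted changes. That check does not cover other spread between libraries. Windows of 50 bases were compared between transcripts. Python 3.11.15 was used with scipy 1.17.1, Biopython 1.88, numpy 2.4.6, pandas 2.3.3 and matplotlib 3.10.9. Depth, from 44383636 to 49932446 counts, gives a counting error of 1.05% for Hdac7 and 3.95% for Hdac8 in a single library. Intervals and floors cover counting error only.

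The members and gene lists were chosen with earlier results of these data known. Named were all members, the highest 2 and lowest 2 genes of each list per kilobase, all genes of lists of 5 or fewer, listed partners under 1 CPM, and the neighbours of Hdac9. Values of 2 listed genes are not reported here. Marker lists (fibroblast, endothelial, skeletal muscle, neuronal, blood cell, epithelial) are given by counts, sums and defining genes.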

Additional observations from a re-analysis of the deposited data

How the results depend on the processing

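The class shares moved by more than their SD with the length and with the counting of Hdac1. Without division by length they were 39.5% for class I, 44.8% for class IIa and 15.7% for class IIb. With the counts of Gm10093 added to Hdac1, an alternative chosen after seeing the data, they were 56.8%, 27.7% and 15.5%. With the longest coding transcript, class IIb fell to 15.0%. Without any one replicate they ranged from 50.7% to 52.7%, from 30.1% to 31.8% and from 17.1% to 17.5%. The ratio to Hdac9 ranged from 294 to 2559 for Hdac4, from 2311 to 22439 for Hdac5 and from 4183 to 38353 for Hdac7 over the fits without one replicate, highest without replicate 1, which holds 8 of the 9 Hdac9 counts. That of Hdac7 was 3009 without division by length. The number of members called as varying ranged from 2 to 5 over those fits and was lowest without replicate 2, where 12.5% of all genes were called, against 34% without replicate 3 and 32.9% without replicate 1. Under other scalings and count filters, 0 of 36 calls on single members changed, and another scaling moved a member's level by at most 0.0808%. Over the alternatives run, 5 to 8 neighbouring pairs kept the main order in every library. Members above the floor stayed at 9 and listed genes past the CPM limit at 92 to 95. The order itself was less stable than these counts. With the longest coding transcript Hdac3 stood above Hdac1, and Hdac5 above Hdac6, in every library. With the Gm10093 counts added, Hdac1 stood above Hdac7 in every library. No paired analysis was possible because the libraries hold 1 condition. Depth limits Hdac9, Mef2b and Camk1g, which are at or near 3 counts.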

Other observations

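For 2 pairs of members, Hdac1 with Hdac2 and Hdac4 with Hdac9, a neighbour of each was a paralog of a neighbour of the other. These pairs were chosen after their values were seen, by the symbols of the neighbours, and say nothing of the other members. Marcksl1 lies 118 bases from Hdac1 and had 112 ± 2.13 CPM, and Marcks lies 131485 bases from Hdac2 and had 181 ± 10.3 CPM (SD, n = 3). Both encode actin-binding substrates of protein kinase C at the membrane. Twist2 lies 80750 bases from Hdac4 and had 11.3 ± 0.462 CPM (SD, n = 3), while Twist1, next to Hdac9, had 19.6 ± 2.07 CPM (SD, n = 3). The Twist genes were thus both transcribed beside class IIa genes that stood at 29.4 ± 1.78 CPM for Hdac4 and at 8, 0 and 1 counts for Hdac9.

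Of the 20 nearest protein-coding neighbours of the 10 members, 14 had a mean of at least 1 CPM. Over all 21547 protein-coding genes in the files 52.2% reached this level, and whether the neighbours differ from that share was not tested. Hdac6 lies between the silent genes Eras, 1512 bases away, and Gata1, a blood transcription factor 11370 bases away, both with 0 counts in every library, and was itself at 92.7 ± 2.23 CPM (SD, n = 3).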
